A study of Mus musculus with 6 samples.

Results

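Ebi3 and 9 genes of inflammatory interleukin receptor chains were examined in activated mouse CD8+ T cells exposed to TVA (trans-vaccenic acid), which is found in the fat of ruminants. The members were picked by gene symbol as Ebi3 itself together with the receptor chains for IL-27 (Il27ra), IL-6 and its family (Il6st, Il6ra), IL-12 (Il12rb1, Il12rb2), IL-18 (Il18r1, Il18rap), IL-33 (Il1rl1) and IL-4 (Il4ra). All 10 symbols were present among the 24589 genes of the table, and all 10 passed the filter on low values, a level of at least 1 TPM (an abundance scaled for transcript length and to a fixed total per library) in at least 3 libraries. Primary CD8+ T cells of genotype WT, which the study isolated from spleen and lymph nodes of C57BL/6 mice, were stimulated in every group with antibodies to CD3 and CD28. They were then kept for 24 h with 20 µM TVA or with the solvent DMSO, with 3 libraries per group and 6 in all. The study used age-matched young adult mice of both sexes, and the number of mice behind a library is not given in the sources used here. Nothing in the labels says that same-group libraries came from separate cultures or animals, so p-values measure only the spread between these libraries, which may be technical.

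EBI3 is a secreted protein built like a soluble cytokine receptor, and it has no cytokine activity without a partner. It forms IL-27 with the p28 chain (Il27) and IL-35 with the p35 chain (Il12a), the chain that IL-12 also uses. Receptors of the IL-12 and IL-6 families pair a ligand-specific chain with a shared chain and signal through JAK kinases and STAT factors, whereas the receptors of IL-18 and IL-33 belong to the IL-1 receptor family and signal through MyD88. In activated CD8+ T cells, IL-12 and IL-18 together drive interferon-γ, and IL-27 acts through the chains encoded by Il27ra and Il6st.

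The cells carried the markers of their label. Cd8a, Cd8b1, Cd3d, Cd3e, Cd3g and Cd2 summed to 1670 to 1800 TPM with DMSO and to 1912 to 1943 TPM with TVA, and of these Cd3g rose (log2 change 0.28, limma adjusted p 0.0063). Markers of cells that can also express the 10 genes summed to far less than these. The 5 B cell markers summed to 11.3 to 14.9 TPM in controls and 10.7 to 11.0 TPM with TVA, nearly all of it Cd79b. The 3 markers of CD4 and regulatory T cells summed to 7.49 to 8.44 and 7.33 to 7.54 TPM, with Foxp3 between 0.53 and 0.89 TPM. Of the 4 NK cell markers Klrk1, which CD8+ T cells also express, made up most of the sum of 16 to 17.5 and 16.9 to 17.9 TPM, and Ncr1 and Klrb1c stayed at or under 0.43 TPM. The 6 markers of mast cells, basophils and innate type 2 lymphocytes summed to 19.1 to 21.3 and 17.1 to 18.5 TPM, and Fcer1a among them fell (log2 change -0.42, limma adjusted p 0.011). The 6 markers of macrophages, monocytes and dendritic cells summed to 32.8 to 35.3 and 44.0 to 46.4 TPM, and the lysozyme gene Lyz2, which supplied most of that sum, rose (log2 change 0.38, limma adjusted p 0.0076). None of the markers was listed at 0 in every library, and some were not low next to the 10 genes. Lyz2 (28.9 to 41.3 TPM) lay above Il6st, Il18rap, Ebi3, Il6ra, Il18r1 and Il1rl1 in every library. Cd79b (9.15 to 13.25 TPM) lay above Ebi3 in every library. The part of such cells in the values of the 10 genes was not tested. Leaving out DMSO replicate 2 raised the number of genes past the threshold described next from 925 to 2242, and leaving out any 1 TVA library lowered it to between 102 and 125, so results that rest on 1 library are given with and without it.

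Levels of the 10 genes spanned a wide range (plot of levels by library). Per unit of transcript length, Il4ra was the most abundant, with 83.9 to 101.6 TPM over the 6 libraries, followed by Il12rb1 with 68.5 to 94.1 TPM. These ranges overlapped with DMSO but not with TVA. Il27ra had 56.1 to 59.0 TPM, Il12rb2 had 38.5 to 50.2 TPM and Il6st had 22.5 to 24.5 TPM, and each of these 3 genes lay apart from its neighbours in every library. A lower tier held Il18rap (6.19 to 8.62 TPM), Ebi3 (4.53 to 6.52 TPM), Il6ra (4.38 to 6.25 TPM) and Il18r1 (3.68 to 4.85 TPM), in which neighbouring genes overlapped across the libraries. Il1rl1 was the lowest, at 1.46 to 1.78 TPM, and its mean exceeded that of only 4.97% of the genes tested, against 84.7% for Il4ra and 19.7% for Ebi3. The values are gene totals, so soluble and membrane-bound forms of a chain are not separated. GENCODE M21 lists a single transcript for Ebi3, 2 for Il6ra, 5 for Il1rl1 and for Il4ra, and 10 for Il6st.

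**Figure D1:**
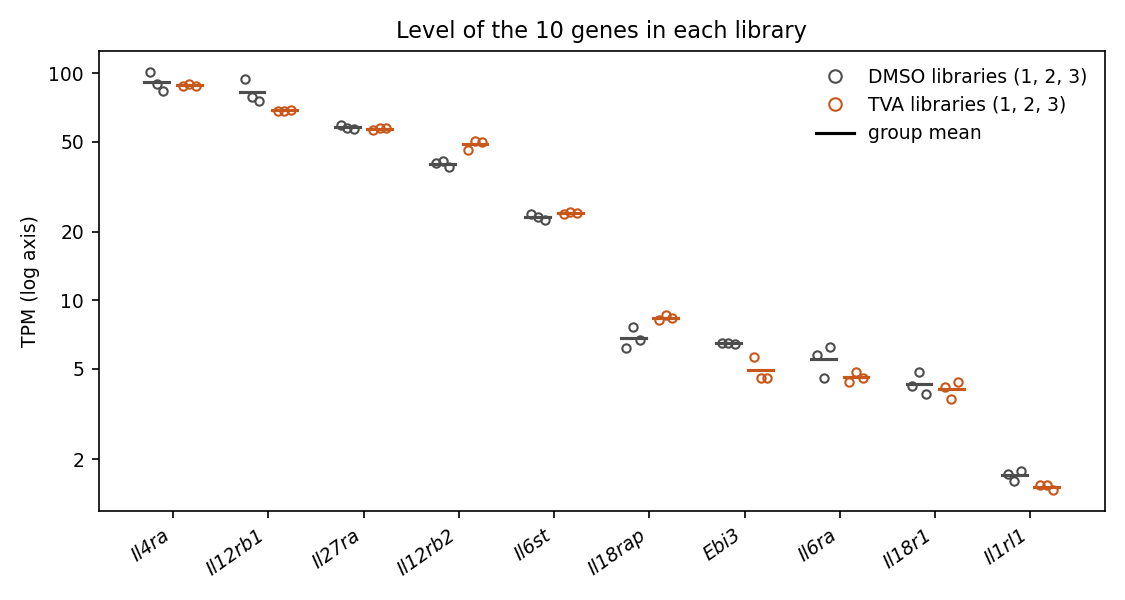
TPM of the 10 genes on a log axis, with the 3 DMSO libraries (grey) and 3 TVA libraries (orange) as open circles in the order of their numbers and the group mean as a line. For Il12rb2, Il18rap and, barely, Il6st each TVA library lies above the DMSO libraries, for Ebi3, Il12rb1 and Il1rl1 each lies below them, and the level ranges from 1.46 TPM (Il1rl1) to 101.6 TPM (Il4ra).

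With TVA, Ebi3 fell and the IL-12 receptor chain Il12rb2 rose, and the other 8 genes did not pass the test. Changes were tested with limma on log2(TPM + 1), a scale on which changes of low genes are understated, and p-values were adjusted across the 10866 genes that were tested, with 0.05 as the threshold. Of the 10 members 2 thus passed, 1 higher and 1 lower. Over all genes tested, 8.51% passed, with 5.28% higher and 3.23% lower. Expression did not overlap between the groups for 6 of the 10 members, 3 higher with TVA and 3 lower, and for 38.6% of all genes tested. The median log2 change was -0.06 over the 10 members and 0.04 over all genes tested, and the members summed to 302 to 343 TPM with DMSO and to 306 to 313 TPM with TVA. In a bulk library, a smaller share of cells of one type and less RNA per cell cannot be told apart.

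Ebi3 lies on the plus strand of chromosome 17 (55952640 to 55957022, GRCm38). Its level was 6.52, 6.46 and 6.42 TPM in DMSO replicates 1, 2 and 3 and 5.66, 4.53 and 4.55 TPM in TVA replicates 1, 2 and 3. The DMSO libraries were nearly equal, and all 3 TVA libraries were lower, with TVA replicate 1 closest to the controls. The mean fell from 6.47 ± 0.0503 (SD, n = 3) to 4.91 ± 0.647 TPM (n = 3), a log2 change of -0.34 (95% interval -0.53 to -0.15, limma adjusted p 0.044). The absolute change was larger than that of 94.5% of the genes tested. It was -0.43 without TVA replicate 1 (adjusted p 0.035) and about as large without DMSO replicate 2 (-0.34, adjusted p 0.041). Ebi3 no longer passed without DMSO replicate 1 (-0.34, adjusted p 0.063), DMSO replicate 3 (-0.35, 0.10), TVA replicate 2 (-0.30, 0.17) or TVA replicate 3 (-0.30, 0.16), with a replicate block (0.069) after correction for GC content (-0.28, 0.075) and with every gene above 0 TPM tested (0.089).

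The chains that pair with EBI3 were scarcely detected. Il27, the p28 chain of IL-27, was at 1.00, 0.47 and 0.45 TPM in DMSO replicates 1, 2 and 3 and at 0.67, 0.17 and 0.20 TPM in those with TVA, so the groups overlapped. Il12a, the p35 chain of IL-35 and IL-12, had 0.90, 0.89 and 0.90 TPM under DMSO and 0.70, 0.65 and 0.57 TPM under TVA. All TVA values of Il12a were lower, as for Ebi3, but neither Il27 nor Il12a reached the filter, so neither was tested. Il12b, the p40 chain of IL-12 and IL-23, lay between 0.14 and 0.33 TPM. Ebi3 was therefore more abundant than each of its partner chains in every library, by TPM.

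The genes whose profile over the 6 libraries was most like that of Ebi3 were taken as those with the smallest root mean square difference of centred log2(TPM + 1), among 8934 genes tested with a mean of at least 5 TPM. They were Il3, a cytokine gene, at 0.0543, followed by the caspase gene Casp6 at 0.0579, the microRNA host gene Mir22hg at 0.0621, S100a6 at 0.0708 and Fndc10 at 0.0719. The median of this difference over all candidates was 0.225. Il3 had 73.4, 80.3 and 74.4 TPM under DMSO and 66.2, 59.2 and 57.6 TPM under TVA, again with TVA replicate 1 nearest to the controls. This likeness is a description of 6 libraries without a test.

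Of the IL-12 receptor chains, Il12rb2 rose past the threshold, while Il12rb1 was lower in every TVA library with a change that did not pass. Il12rb2 encodes the signalling chain, which activated T cells and NK cells express and which recruits STAT4 through JAK2. It lies on the minus strand of chromosome 6 (67291318 to 67376188). Its level was 40.2, 41.1 and 38.5 TPM in DMSO replicates 1, 2 and 3 and 45.9, 50.2 and 49.8 TPM in TVA replicates 1, 2 and 3. Every TVA library was higher than every DMSO library. The mean rose from 39.9 ± 1.33 (SD, n = 3) to 48.6 ± 2.35 TPM (n = 3), a log2 change of 0.28 (95% interval 0.16 to 0.39, limma adjusted p 0.021). The change was 0.22 after GC correction (adjusted p 0.017) and 0.30 without DMSO replicate 2 (0.011). It did not pass without DMSO replicate 3 (0.25, adjusted p 0.059), TVA replicate 2 (0.25, 0.11) or TVA replicate 3 (0.26, 0.11) and with a replicate block (0.053).

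Il12rb1, the chain that the receptors of IL-12 and IL-23 share and that binds TYK2, lies on chromosome 8 (70808449 to 70821424). It stood at 94.1, 78.6 and 75.2 TPM in DMSO replicates 1, 2 and 3 and 68.5, 68.5 and 68.8 TPM in the TVA libraries. The TVA values were nearly identical and below all DMSO values, while DMSO replicate 1 lay well above the other two. Means were 82.6 ± 10.1 and 68.6 ± 0.170 TPM (SD, n = 3 each), a log2 change of -0.26 (95% interval -0.44 to -0.08, limma adjusted p 0.073). The change passed without DMSO replicate 1 (-0.16, adjusted p 0.035) or DMSO replicate 2 (-0.29, 0.045), after quantile normalization (-0.28, 0.049), with median-of-ratios scaling (-0.30, 0.043) and after GC correction (-0.20, 0.029). Transcript GC content is 57.2% for Il12rb1, 47.1% for Il12rb2 and 57.4% for Ebi3. Over all genes, the log2 change had a Spearman correlation of -0.40 with GC content (10588 genes, which share the 6 libraries and are not independent).

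**Figure D2:**
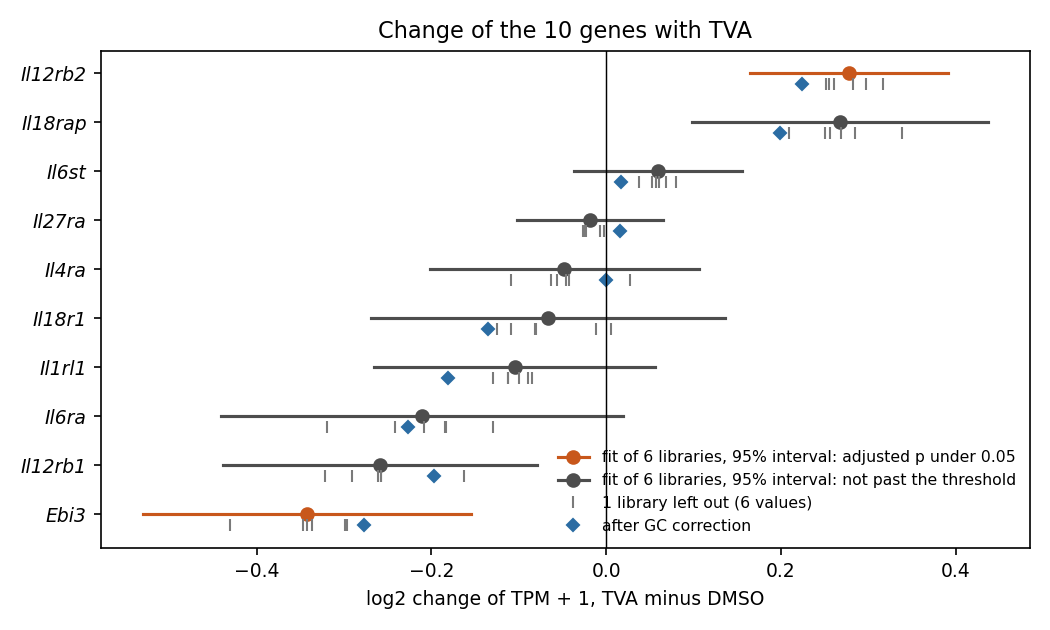
Log2 change of TPM + 1 (TVA minus DMSO) for each of the 10 genes with its 95% interval, orange where the adjusted p is under 0.05, with grey ticks for fits that leave out 1 library and blue diamonds for the fit after GC correction. Ebi3 (-0.34) and Il12rb2 (0.28) are the 2 genes past the threshold, and the values of Ebi3, Il12rb1, Il12rb2, Il18rap and Il6ra keep their sign in all fits shown.

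The regions just before the start sites of Ebi3 and Il12rb2, the members that passed in opposite directions, are shown for their sequence. RefSeq promoter windows (GRCm38.p6) matched 8 of the 10 members, with 11 start sites in all and none matched for Il12rb1 or Il27ra. The 250 bases upstream of each start site were searched on both strands for the cAMP response element TGACGTCA, for its shorter form TGACG, which every full element contains, and for the STAT-type palindrome TTCNNNGAA. Capitals mark matches. The Ebi3 window (chr17:55952373-55952622, plus strand) has a GC content of 56.0% and holds none of them. The Il12rb2 window (chr6:67376189-67376438, minus strand) has a GC content of 50% and holds TGACG, read on the opposite strand, at positions -178 to -174 from the start site and TTCNNNGAA at -123 to -115.
Ebi3: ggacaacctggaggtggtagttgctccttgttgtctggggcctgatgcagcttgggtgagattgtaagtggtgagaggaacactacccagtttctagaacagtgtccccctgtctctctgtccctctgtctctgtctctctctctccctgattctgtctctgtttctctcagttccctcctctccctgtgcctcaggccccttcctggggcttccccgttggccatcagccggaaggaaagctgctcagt
Il12rb2: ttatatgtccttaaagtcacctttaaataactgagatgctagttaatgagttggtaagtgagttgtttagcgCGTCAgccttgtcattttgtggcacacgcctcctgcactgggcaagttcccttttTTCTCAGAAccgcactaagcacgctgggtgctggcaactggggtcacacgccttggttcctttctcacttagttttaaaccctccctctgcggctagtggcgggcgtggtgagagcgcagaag

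Of all windows of this length for genes of the table, 20.7% hold TGACG, 6.82% hold TTCNNNGAA and 2.01% hold TGACGTCA. Among the other members, TGACG stood at -236 to -232 in Il6ra and at -34 to -30 from the downstream start of Il1rl1, TTCNNNGAA stood at 2 places before the most downstream of the 3 starts of Il18r1, and TGACGTCA was in no member window. A match describes the letters and is not evidence of a bound factor.

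Because both chains of a receptor were read from the same library, their ratio is free of any scaling of that library. There were 6 such ratios, and an exact permutation test of 3 against 3 libraries (two-sided) cannot go below p = 0.10. The ratio of Il12rb2 to Il12rb1 was 0.428, 0.523 and 0.511 in DMSO replicates 1, 2 and 3 and 0.670, 0.733 and 0.724 in TVA replicates 1, 2 and 3. All TVA ratios were higher, and the mean ratio differed by 1.46-fold (difference of the mean log2 ratio 0.55, exact permutation p 0.10, adjusted over the 6 ratios 0.15). This difference was 0.45 to 0.60 when 1 library was left out and 0.42 after GC correction.

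In the IL-18 receptor, neither chain passed the threshold. Il18rap, the accessory chain that completes the signalling complex, was at 6.19, 7.60 and 6.67 TPM in DMSO replicates 1, 2 and 3 and at 8.17, 8.62 and 8.38 TPM in TVA replicates 1, 2 and 3. All TVA values were higher, and DMSO replicate 2 was the control nearest to them. The means were 6.82 ± 0.717 and 8.39 ± 0.225 TPM (SD, n = 3 each), with a log2 change of 0.27 (95% interval 0.10 to 0.44, limma adjusted p 0.060) that reached 0.34 and passed without DMSO replicate 2 (adjusted p 0.012). Il18r1, the ligand-binding chain, had 4.18, 4.85 and 3.88 TPM in controls and 4.14, 3.68 and 4.35 TPM with TVA. Its groups overlapped, with a log2 change of -0.07 (95% interval -0.27 to 0.14, limma adjusted p 0.62). The ratio of Il18rap to Il18r1 was 1.48, 1.57 and 1.72 with DMSO and 1.97, 2.34 and 1.93 with TVA, higher in every TVA library, with a 1.31-fold difference (log2 0.39, exact permutation p 0.10, adjusted 0.15). The ligand gene Il18 was at 0 to 0.30 TPM and was not tested.

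**Figure D3:**
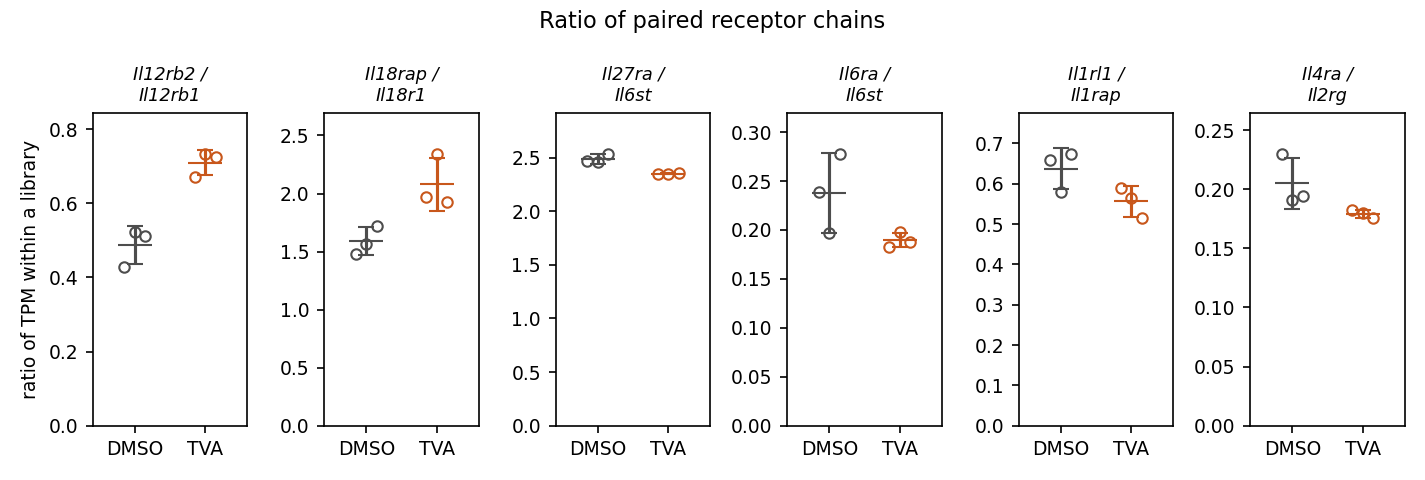
Ratio of the TPM of paired receptor chains within each library (open circles), with the mean and SD of the 3 DMSO (grey) and 3 TVA (orange) libraries, each panel on its own linear axis from 0. The ratios Il12rb2 to Il12rb1 and Il18rap to Il18r1 are higher in all TVA libraries, the ratios Il27ra to Il6st and Il4ra to Il2rg are lower in all TVA libraries, and the others overlap.

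Il1rl1, which encodes the IL-33 receptor chain ST2, lies next to the IL-18 receptor genes. On chromosome 1, 6 genes of the IL-1 receptor family, Il1r2, Il1r1, Il1rl2, Il1rl1, Il18r1 and Il18rap, follow each other on the plus strand within 477627 bases. Il1rl1 ends at 40465415 and Il18r1 starts at 40465552, with 136 bases between them, and Il18rap (40515362 to 40551705) follows 14507 bases after the end of Il18r1. Il1rl1 measured 1.72, 1.61 and 1.78 TPM in DMSO replicates 1, 2 and 3 and 1.54, 1.54 and 1.46 TPM in TVA replicates 1, 2 and 3. All TVA values were lower by a small margin, and the log2 change of -0.10 (95% interval -0.27 to 0.06) did not pass (limma adjusted p 0.33). Of the 6 markers of mast cells, basophils and innate type 2 lymphocytes, Cpa3 (6.80 to 7.86 TPM), Fcer1a (5.13 to 7.72 TPM) and Rora (1.70 to 2.19 TPM) exceeded Il1rl1 in every library, and Ms4a2 (1.57 to 2.43 TPM) did so in all but DMSO replicate 1. Kit (1.04 to 1.41 TPM) and Hpgds (0.25 to 0.40 TPM) lay below Il1rl1 in every library. Fcer1a fell, and the other 4 of the 5 markers tested did not pass. Their part in the Il1rl1 values was not tested. Il1rap, the partner chain of ST2, was at 2.61 to 2.84 TPM (log2 change 0.02, limma adjusted p 0.85), and the ratio of Il1rl1 to Il1rap overlapped between the groups (0.637 ± 0.0511 and 0.556 ± 0.0386, SD, n = 3 each, exact permutation p 0.20), with a log2 difference of -0.20 that was -0.11 after GC correction. Il33 did not exceed 0.13 TPM.

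At the other end of the cluster, Il1r2, the decoy receptor that takes up IL-1 without signalling, fell from 2.22 ± 0.297 to 1.02 ± 0.226 TPM (SD, n = 3 each), with a log2 change of -0.67 (limma adjusted p 0.016). It did not pass without DMSO replicate 3 (-0.60, 0.055), TVA replicate 1 (-0.60, 0.067) or TVA replicate 2 (-0.67, 0.086). For this low gene the log2 change was -1.06 with a pseudocount of 0.1 (adjusted p 0.018). The neighbours of this cluster thus ranged from a fall that passed (Il1r2) to a higher level that did not (Il18rap).

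No chain of the IL-27 and IL-6 receptors passed the threshold, and Il27ra had the smallest log2 change of the 10 genes in the reported fit. After GC correction the change of Il4ra (-0.00027) was smaller in size than that of Il27ra (0.016). Il27ra, the specific chain of the IL-27 receptor, had 59.0, 57.1 and 57.0 TPM in DMSO libraries and 56.1, 57.5 and 57.3 TPM with TVA. The groups overlapped, and the 95% interval of the change ran from 0.932-fold to 1.046-fold (log2 change -0.02, limma adjusted p 0.75). Il6st encodes gp130, the shared signalling chain of IL-6, IL-27 and related cytokines. It was found at 23.9, 23.3 and 22.5 TPM in DMSO libraries and at 23.9, 24.5 and 24.3 TPM with TVA. The lowest TVA value, 23.93 TPM, was just above the highest DMSO value, 23.92 TPM, and the log2 change was 0.06 (limma adjusted p 0.35, fold interval 0.975 to 1.114). The ratio of Il27ra to Il6st was 2.49 ± 0.0434 with DMSO and 2.35 ± 0.00781 with TVA (SD, n = 3 each) and lower in every TVA library (log2 difference -0.08, exact permutation p 0.10). After GC correction that difference was -0.00025.

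Il6ra, the ligand-binding chain of the IL-6 receptor, was more variable. It reached 5.72, 4.57 and 6.25 TPM in DMSO replicates 1, 2 and 3 and 4.38, 4.84 and 4.57 TPM in TVA replicates 1, 2 and 3. DMSO replicate 2 lay within the TVA range and the other controls above it. The log2 change was -0.21 (95% interval -0.44 to 0.02, limma adjusted p 0.19) with all libraries, -0.32 (adjusted p 0.024) without DMSO replicate 2 and -0.13 (adjusted p 0.40) without DMSO replicate 3. The ratio of Il6ra to Il6st was 0.238 ± 0.0407 and 0.190 ± 0.00750 (SD, n = 3 each, exact permutation p 0.20), with a log2 difference of -0.31 that was -0.19 without DMSO replicate 3. The myeloid marker Lyz2 rose while Il6ra, which myeloid cells also express, did not, and the part of such cells in the Il6ra values was not tested.

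Il4ra, the chain that binds IL-4 and takes part in both IL-4 and IL-13 receptors, stood at 101.6, 89.4 and 83.9 TPM in DMSO replicates 1, 2 and 3 and at 88.0, 89.3 and 87.7 TPM in TVA replicates 1, 2 and 3. The TVA values lay inside the range of the controls. The log2 change was -0.05 (95% interval -0.20 to 0.11, limma adjusted p 0.64). Its partner Il2rg, the common gamma chain, was at 442, 468 and 433 TPM in controls and 483, 496 and 499 TPM with TVA (log2 change 0.14, limma adjusted p 0.070), and passed without DMSO replicate 2 (0.17, 0.018). The ratio of Il4ra to Il2rg was 0.205 ± 0.0216 and 0.179 ± 0.00346 (SD, n = 3 each), lower in every TVA library (exact permutation p 0.10). The log2 difference of -0.19 was -0.10 without DMSO replicate 1 and -0.10 after GC correction. Il13ra1, the partner for IL-13, was at 0.13 to 0.36 TPM.

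The genes around these receptors were read from the same fit, as 62 genes in 5 lists of cytokines, partner chains, other receptors and the relays downstream. Of these, 48 were tested, 3 were higher, 7 were lower and 38 did not pass, with a median log2 change of 0.0026 against 0.04 over all genes tested. Over all genes tested, 8.51% passed (5.28% higher, 3.23% lower), the shares beside which the count of each list stands. Of 11 cytokine genes, 5 were tested and 3 fell, and these were Il13 (32.8 ± 2.18 to 15.6 ± 1.00 TPM, log2 change -1.03, limma adjusted p 5.0e-04), Il4 (11.2 ± 0.987 to 7.21 ± 0.815 TPM, -0.57, 0.016) and Il23a (9.33 ± 0.713 to 5.45 ± 0.810 TPM, -0.68, 0.013), the p19 chain of IL-23. Il13 passed in each of its 14 alternatives, Il23a did not without TVA replicate 2 (-0.70, 0.063), and Il4 did not without DMSO replicate 3 (-0.51, 0.053), TVA replicate 2 (-0.51, 0.081) or TVA replicate 3 (-0.54, 0.080) or with a replicate block (0.052). Il6 had 2.54, 3.50 and 3.09 TPM in controls and 2.23, 2.36 and 1.99 TPM with TVA (log2 change -0.34, limma adjusted p 0.073). Thus the genes of both IL-4 receptor ligands fell while Il4ra did not pass, and Il23a fell beside its receptor chain Il12rb1, whose change did not pass. Il23r, the other chain of that receptor, was at 0.78 to 1.36 TPM (log2 change -0.13, limma adjusted p 0.46).

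Of 12 partner chains and decoys, 7 were tested and Il1r2 was the 1 that passed, against 8.51% of all genes tested. Of 12 receptors of other cytokines, 10 were tested and 3 rose, against 5.28% of all genes tested, and none fell past the threshold. They were Il21r (272 ± 11.7 to 325 ± 4.78 TPM, log2 change 0.26, limma adjusted p 0.016) and both chains of the IL-10 receptor, Il10ra (14.5 ± 0.721 to 18.1 ± 0.491 TPM, 0.31, 0.017) and Il10rb (47.6 ± 2.07 to 54.2 ± 0.904 TPM, 0.18, 0.044). Il10rb passed in 4 of its 14 alternatives, Il10ra in 9 and Il21r in 11. Without TVA replicates 1, 2 and 3 in turn, the adjusted p was 0.081, 0.095 and 0.089 for Il21r, 0.078, 0.089 and 0.083 for Il10ra and 0.11, 0.17 and 0.18 for Il10rb, and without DMSO replicate 3 it was 0.053 for Il10ra and 0.073 for Il10rb.

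In the JAK-STAT relay 1 of 13 genes tested passed, against 8.51% of all genes tested. Socs3, an inhibitor that binds gp130, had 26.5, 21.4 and 24.3 TPM in controls and 18.9, 19.2 and 18.4 TPM with TVA, lower in every TVA library (log2 change -0.33, limma adjusted p 0.037). The GC content of Socs3 transcripts is 62.9%, and after GC correction the change was -0.02 (adjusted p 0.83). It also did not pass without DMSO replicate 3 (0.096) or without TVA replicate 1, 2 or 3 (0.11, 0.14 and 0.15). The same held with a replicate block (0.066) and with every gene above 0 TPM tested (0.075). Stat4, the factor of the IL-12 receptor, was at 125 to 127 TPM in controls and 130 to 134 TPM with TVA (log2 change 0.06, limma adjusted p 0.23). The kinases Jak1 (0.12), Jak2 (0.02) and Tyk2 (-0.10) did not pass (limma adjusted p 0.074, 0.69 and 0.29).

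In the MyD88 relay 2 of 13 genes tested passed, both lower, against 8.51% of all genes tested (3.23% lower). Irak2, a kinase-like adaptor of the receptor complex, fell from 11.6 ± 0.291 TPM to a mean of 9.5 ± 0.285 TPM (log2 change -0.27, limma adjusted p 0.021) and Nfkb1, an NF-κB subunit, from 380 ± 24.0 to 326 ± 4.27 TPM (-0.22, 0.041). Without TVA replicate 1, 2 or 3 neither passed (0.070, 0.11 and 0.11 for Irak2, and 0.13, 0.16 and 0.16 for Nfkb1), and Nfkb1 did not without DMSO replicate 3 (0.063). With a replicate block neither passed (0.057 for Irak2 and 0.075 for Nfkb1). Nfkb1 also did not pass with no variance trend (0.057) or with every gene above 0 TPM tested (0.072). Myd88 itself had a log2 change of -0.08 (limma adjusted p 0.27).

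**Figure D4:**
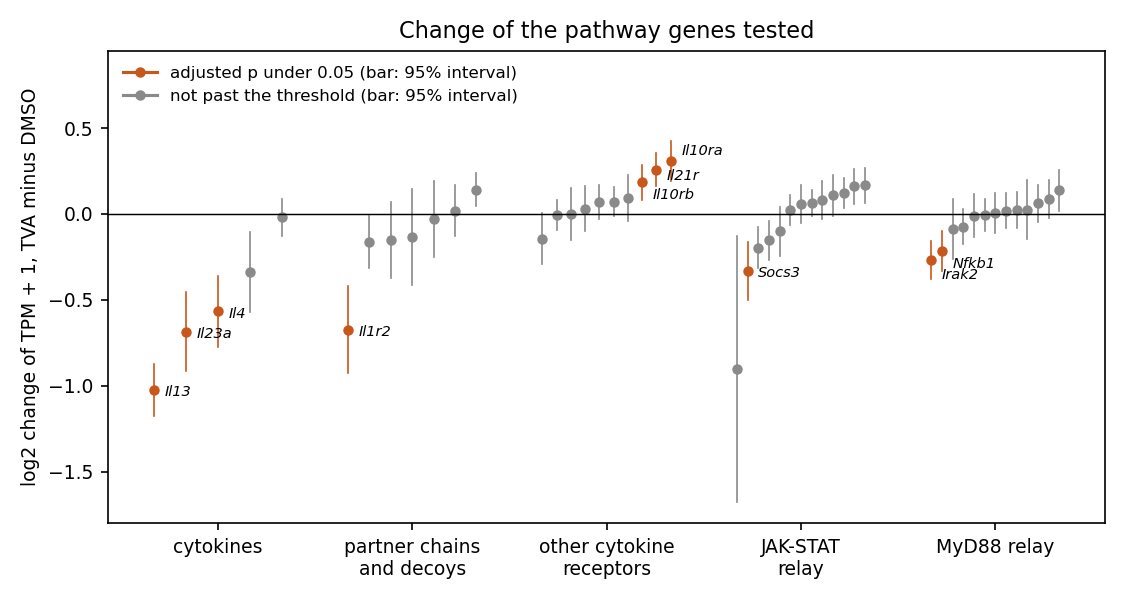
Log2 change of TPM + 1 (TVA minus DMSO) with 95% intervals for the 48 pathway genes tested, in 5 lists and in order of their change, orange and named where the adjusted p is under 0.05. On this scale the genes that fell past the threshold include Il13 (-1.03), Il23a (-0.68), Il1r2 (-0.67, or -1.06 with a pseudocount of 0.1) and Il4 (-0.57), and the genes that rose past the threshold were Il10ra, Il21r and Il10rb.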

How the data were processed

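The authors deposited a table of TPM per gene symbol for 3 DMSO and 3 TVA libraries, made per the labels with a SMARTER mRNA-Seq kit. STAR, RSEM and the build mm10 are named in the submitters' processing notes, and versions, annotation and strand are not given in the sources used here. Columns were matched to libraries by the column name in each description. TPM keeps no depth, so depth is unknown and no counting interval is given.

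Genes with at least 1 TPM in at least 3 libraries (10866) were tested with limma 3.58.1 in R 4.3.3 on log2(TPM + 1), with a variance trend and Benjamini-Hochberg adjustment over all of them (two-sided, threshold 0.05). Log2 changes are TVA minus DMSO, and 95% intervals come from the same fit. Ratios of chains were compared by an exact permutation test. Named were all 10 members, the pathway genes past the threshold, the partner chains used in ratios, Il27, Il18 and the 5 genes most like Ebi3, and further listed genes were added after their values were seen. The members and all lists were chosen with earlier results of these data known. Alternatives were another pseudocount, other filters, other scalings, no variance trend, a replicate block, each library left out, and a GC correction, which subtracts within each library a loess curve (span 0.5) of deviations on the median transcript GC content in GENCODE M21 (known for 97.4% of genes). Positions are from GENCODE M21 and promoters from RefSeq, both GRCm38, the assembly that mm10 names. The fit was tested on simulated data. Figures were drawn with matplotlib 3.10.9. Protein sequences were not analysed here.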

Additional observations from a re-analysis of the deposited data

How the results depend on the processing

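The number of members past the threshold, 2 as reported (1 higher, 1 lower), was 1 when all genes above 0 TPM were tested (0 lower) and 1 when a mean of at least 10 TPM was required (0 lower, since Ebi3 and 4 others lie below that level). It was 3 (2 lower) under quantile normalization and under median-of-ratios scaling, where Il12rb1 joined. Of all genes, 925 of 10866 passed as reported, 494 of 16749 and 608 of 7563 under these filters, and 775 and 762 under these scalings. With a library left out the number of members ran from 0 to 5 (0 to 2 higher, 0 to 3 lower). It was 5 without DMSO replicate 2, where 2242 of all 10866 genes tested passed. It was 0 by limma without DMSO replicate 3, TVA replicate 2 or TVA replicate 3, where 294, 102 and 113 of all genes passed. In each case 4 of the 10 members had an unadjusted p under 0.05, against 27.1%, 20.1% and 20% of all genes tested. Libraries that share a number do not deviate together (correlations of their deviations 0.16, 0.03 and -0.08), and pairing by number has no basis in the labels. With a replicate block 0 members and 218 of all genes passed by limma. Of the members 4 of 10 had an unadjusted p under 0.05, against 30.9% of all genes tested. With that block 4 pathway genes passed (1 higher, 3 lower). The pathway genes past the threshold, 10 as reported (3 higher, 7 lower), included 4 lower ones when a mean of at least 10 TPM was required. Il4, Il23a and Il1r2 lie below that level and were not tested there. With a library left out the pathway genes past the threshold ran from 1 to 14 (0 to 6 higher, 1 to 9 lower). There was 1 without TVA replicate 2, where 102 of all genes passed. Changes near 0 turned sign for Il27ra (0.016 after GC correction), for Il18r1 and Il4ra with a library left out (-0.12 to 0.0060 and -0.11 to 0.028, above 0 without DMSO replicate 2 and DMSO replicate 1) and for Il1rap (-0.0084 with median-of-ratios scaling, -0.066 after GC correction, and -0.0025 to 0.042 with a library left out). Apart from genes that a filter removed, what lies behind these shifts was not tested. Of 135 values of the 10 members under alternatives, 114 kept direction and side of the threshold, 11 lost the call, 7 gained one and 3 turned sign. All 6 ratios kept their direction under each of their alternatives, though not their size. After GC correction the log2 difference of Il27ra to Il6st was -0.00025 against -0.08, so that its sign carries no weight. That of Il4ra to Il2rg was -0.10 against -0.19. Depth is unknown, so its limits cannot be stated.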
